A study of Homo sapiens with 15 samples.

Results

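EGR, IER and KLF early response genes are 10 genes of the NCI-H1975 transcriptome, taken by name from the 61248 loci of the deposited expression table: EGR1, EGR3, IER2, IER3, IER5, KLF2, KLF4, KLF5, KLF6 and KLF10. These genes and the gene lists below were chosen with earlier results of these data known. Their counts beside the shares of all tested loci are therefore descriptions. NCI-H1975 is a long-established line from a human non-small cell lung cancer, and it carries mutated EGFR on which it relies to grow. Messenger RNA was sequenced in 15 libraries, 3 for each of 5 groups: cells labelled control, cells treated with almonertinib (a drug that inhibits EGFR kinase activity), cells treated with EGF (the ligand of EGFR), cells given the siRNA labelled siNC, and cells given the siRNA labelled siEGFR. All groups are the same cell line, the labels give no dose, time, medium or transfection step, and they do not say whether the 3 libraries of a group come from separate cultures, so p-values measure the spread among libraries alone, and that spread may be technical.

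Immediate early genes are transcribed within minutes of a growth factor signal without new protein synthesis, and their messenger RNAs are short-lived. Downstream of EGFR, the kinase ERK phosphorylates ternary complex factors such as ELK1, which sit with the serum response factor SRF on CArG boxes in the promoters of genes such as EGR1. The EGR proteins are zinc-finger transcription factors that bind GC-rich sites and are held back by the corepressors NAB1 and NAB2. The KLF proteins are zinc-finger factors that bind GC-rich and CACCC sites, and the IER genes encode small proteins named for their immediate early response, of which IER3 is best known for its role in cell survival.

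Because the EGR proteins bind GC-rich promoter sites, RefSeq promoters (GRCh38.p14, 250 bases before to 50 after each start) were searched on both strands. Promoters were matched for 7 of the 10 genes in 8 windows. EGR3, IER3 and KLF10 had no entry. Only EGR1 of the 7 held a CArG box, and it held 2 of them, CCATATTAGG from base -105 to -96 and CCATATATGG from base -83 to -74 relative to the start. Of all 35116 promoters, 1.29% held this motif. The EGR site GCGNGGGCG was found in EGR1, KLF2, KLF4 and KLF6, against 9.43% of all promoters, a share not matched for GC content. These 4 promoters are shown because they are the ones that hold either motif. Each runs 5′ to 3′ on the gene's strand over the 250 bases before the start, with the CArG boxes and EGR sites in capitals, and a match is a description of the letters and not a measured site.
EGR1 (chr5:138465229-138465478, plus strand): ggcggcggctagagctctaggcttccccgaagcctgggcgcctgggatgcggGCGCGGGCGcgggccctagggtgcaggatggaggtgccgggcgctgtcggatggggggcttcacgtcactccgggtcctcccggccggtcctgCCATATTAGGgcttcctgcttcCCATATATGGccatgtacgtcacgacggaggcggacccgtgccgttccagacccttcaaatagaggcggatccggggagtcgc
KLF2 (chr19:16324576-16324825, plus strand): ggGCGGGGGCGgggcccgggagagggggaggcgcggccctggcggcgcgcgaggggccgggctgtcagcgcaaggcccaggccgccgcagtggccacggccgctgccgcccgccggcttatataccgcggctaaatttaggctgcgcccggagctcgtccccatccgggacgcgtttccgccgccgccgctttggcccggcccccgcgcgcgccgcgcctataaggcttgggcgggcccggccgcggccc
KLF4 (chr9:107489770-107490019, minus strand): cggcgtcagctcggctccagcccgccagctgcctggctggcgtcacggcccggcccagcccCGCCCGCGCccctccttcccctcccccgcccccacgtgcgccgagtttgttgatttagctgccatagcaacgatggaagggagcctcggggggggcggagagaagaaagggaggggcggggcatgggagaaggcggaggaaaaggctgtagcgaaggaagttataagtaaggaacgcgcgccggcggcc
KLF6 (chr10:3785210-3785459, minus strand): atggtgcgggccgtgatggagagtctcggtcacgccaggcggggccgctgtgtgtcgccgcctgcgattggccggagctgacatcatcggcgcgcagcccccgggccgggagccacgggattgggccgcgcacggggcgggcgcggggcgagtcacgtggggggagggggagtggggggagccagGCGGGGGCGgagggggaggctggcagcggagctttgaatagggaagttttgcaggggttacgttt
KLF2 held a further EGR site from base 18 to 26 after the start, outside the printed stretch. The windows of 5 genes (IER2, KLF2, KLF4, KLF5 and KLF6) held the GC box GGGCGG, which 45% of all promoters held and which overlaps the EGR sites of KLF2, KLF4 and KLF6. The full cyclic AMP element TGACGTCA was in none of the 7 (1.85% of all), its shorter core TGACG in EGR1, IER2, KLF4 and KLF5 (24.6% of all) and the ETS site CCGGAA in IER2 and IER5 (17.2% of all). The GC content of the windows with an EGR site was 69.3% for EGR1, 80.7% for KLF2, 69.0% for KLF4 and 70.7% for KLF6. It was 69.7% for IER2, 67.3% for IER5 and 40.7% and 71.3% for the windows of KLF5. The median over all promoters was 58.7%, so the shares above are no like background for these GC-rich motifs.

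Read totals recovered from the deposited values ranged from 18009903 to 34908302 per library. EGFR itself was at 49.6 ± 0.218 FPKM in siNC and 29.1 ± 0.666 in siEGFR (SD, n = 3), a change of -0.75 ± 0.11 (log2 with SE, adjusted p = 0.00165). The siNC group also stood above control in EGFR, at 24.4 ± 3.17 FPKM in control (1.00 ± 0.11, adjusted p = 4.9e-06), so the knockdown is read against siNC throughout. The 6 epithelial markers all reached 1 FPKM, with a summed level of 923 to 1142 FPKM, most of it from KRT19 and KRT8. None of the 4 leukocyte markers did (0.491 to 1.06 FPKM summed). Of the 4 fibroblast markers 3 reached 1 FPKM, with most of the sum from COL1A2. The sums were 337 to 352 in control, 358 to 383 with almonertinib, 193 to 214 with EGF, 138 to 146 in siNC and 194 to 196 in siEGFR. Of the 3 endothelial markers 2 reached 1 FPKM (0.339 to 3.5 FPKM summed). These sums differ between groups, and their part in the results below was not tested. In bulk RNA, fewer cells expressing a gene and less RNA per cell cannot be told apart.

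FPKM are fragments per kilobase of gene, scaled by the library's read total, so levels can be compared between genes. Changes are log2 fold changes on the log2(FPKM + 1) scale ± SE from limma, fitted over the 14999 loci that reached 1 FPKM in at least 3 libraries, with p-values adjusted over all of them by Benjamini-Hochberg and a threshold of 0.05. The added 1 understates the change of genes below a few FPKM. All 10 genes passed this filter, EGR3 only through its EGF libraries.

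**Figure D1:**
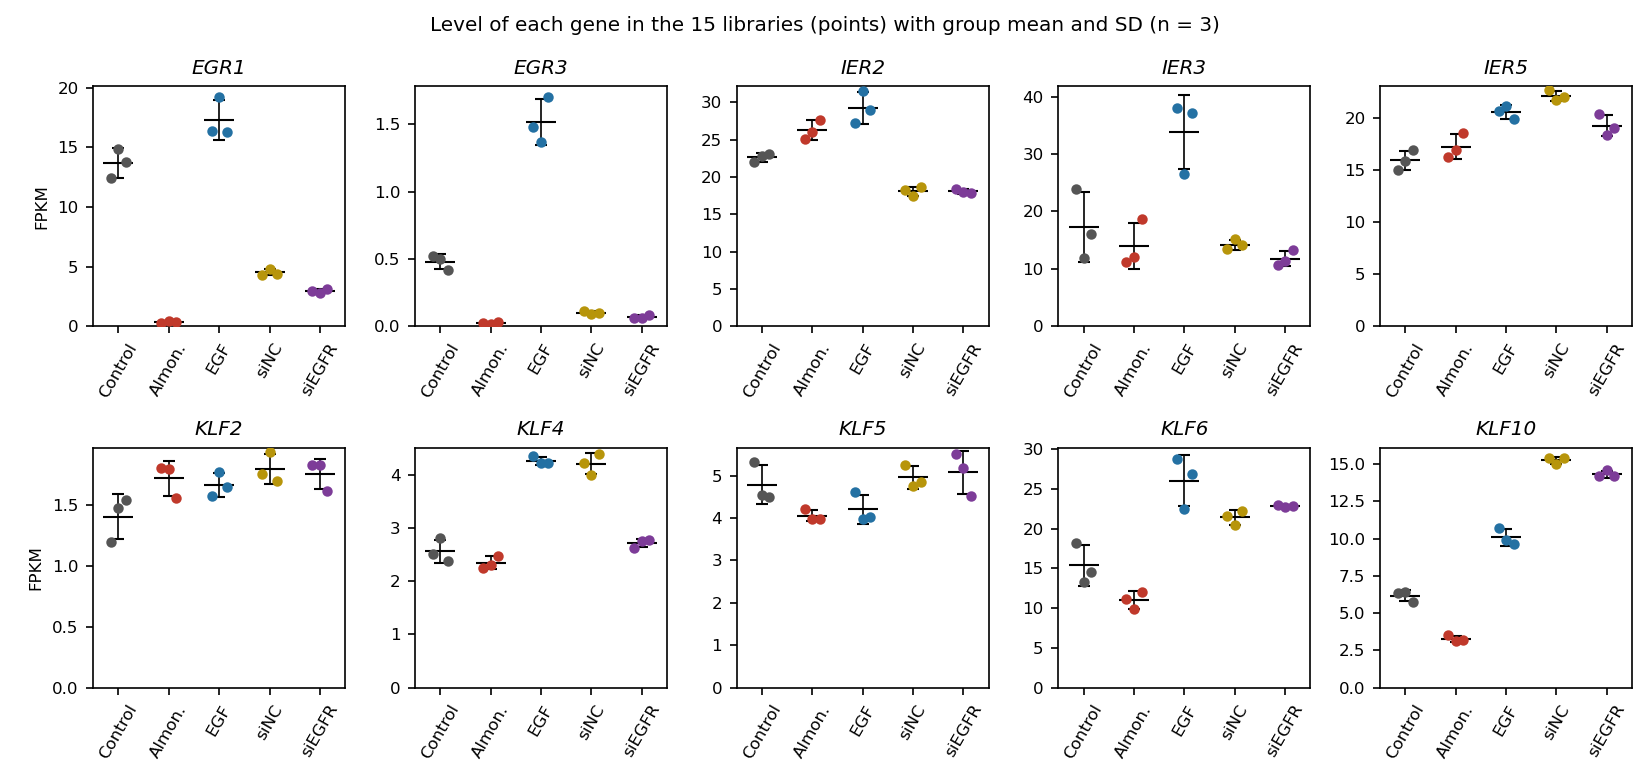
FPKM of the 10 genes (1 panel each, linear axis from 0) in the 15 libraries, by group, with points for libraries and bars for the group mean and SD (n = 3). EGR1 lies between 0.301 and 0.431 FPKM with almonertinib and between 12.4 and 14.9 in control, while the libraries of KLF5 overlap between neighbouring groups.

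EGR1 (ENSG00000120738, chromosome 5) had the widest range of group means of the 10 on the log2(FPKM + 1) scale. In control it was at 12.4, 14.9 and 13.8 FPKM, with almonertinib at 0.301, 0.431 and 0.38, and with EGF at 16.4, 19.2 and 16.3. In the siRNA groups it was at 4.32, 4.79 and 4.4 FPKM in siNC and 2.96, 2.75 and 3.08 in siEGFR. No 2 groups overlapped, and the order from high to low was EGF, control, siNC, siEGFR and almonertinib. EGR1 in the drug-treated cells was at 2.71% of the control mean, which moved it from percentile 79.8 to percentile 3.0 of the tested loci. The 73 reads of the 3 almonertinib libraries against 2485 in control give a control level 36.6 times as high (exact 95% interval 29 to 46.8, counting error only). The fitted changes were -3.42 ± 0.08 with almonertinib (adjusted p = 4.09e-11), 0.32 ± 0.08 with EGF (0.00444) and -0.49 ± 0.08 for siEGFR against siNC (0.00238). Without control 1, almonertinib 3 and EGF 2, the rise of EGR1 with EGF was 0.18 (adjusted p = 0.0414).

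EGR3 (ENSG00000179388, chromosome 8) encodes a zinc-finger factor of the same family. Its level was low: 0.518, 0.502 and 0.419 FPKM in control, 1.48, 1.37 and 1.7 with EGF, and 0.0197, 0.0179 and 0.0296 with almonertinib. The siNC libraries were at 0.11, 0.0895 and 0.0968 FPKM and the siEGFR libraries at 0.0584, 0.0611 and 0.0856. Group order and lack of overlap were those of EGR1. By reads, EGF was 3.18 times control (615 against 141 reads, interval 2.65 to 3.85) and control 21.7 times almonertinib (141 against 7 reads, 10.2 to 54.9). EGR3 entered the filtered fit only through the EGF libraries where it is high, so its calls there (-0.53 ± 0.07 with almonertinib, 0.77 ± 0.07 with EGF) depend on that level. In the fit without the filter, which EGR3 enters whatever its level, it fell with almonertinib (-0.53 ± 0.05, adjusted p = 9.63e-05) and rose with EGF (0.77 ± 0.05, 6.87e-07). Both differences understate the ratios because of the added 1. With limma-voom on the recovered reads the same changes of EGR3 were -4.19 and 1.65, and that of EGR1 with almonertinib was -5.18. For siNC over siEGFR the 37 and 23 reads gave a ratio of 1.45 with an interval of 0.84 to 2.56, so a change of EGR3 on knockdown was not detectable at this depth (-0.04, 95% interval -0.19 to 0.11). A gene on the opposite strand shares 164 bases of exon with EGR3 and was listed at 0.0575 to 1.47 FPKM, and reads of the pair cannot be told apart because the counting is not stated to use strand.

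EGR2 and EGR4, the other members of the family, did not reach the filter and were not tested. EGR2 was at a mean of 0.547 FPKM in control, 0.0385 with almonertinib, 0.665 with EGF, 0.247 in siNC and 0.194 in siEGFR. By reads, EGR2 in control was 13.9 times almonertinib (129 against 10 reads, interval 7.3 to 29.6), and siNC over siEGFR was 1.26 (0.874 to 1.83). EGR4 was lower still, with a control to almonertinib ratio of 2.55 (19 against 8 reads, 1.07 to 6.74) and an EGF to control ratio of 2.34 (1.38 to 4.16).

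**Figure D2:**
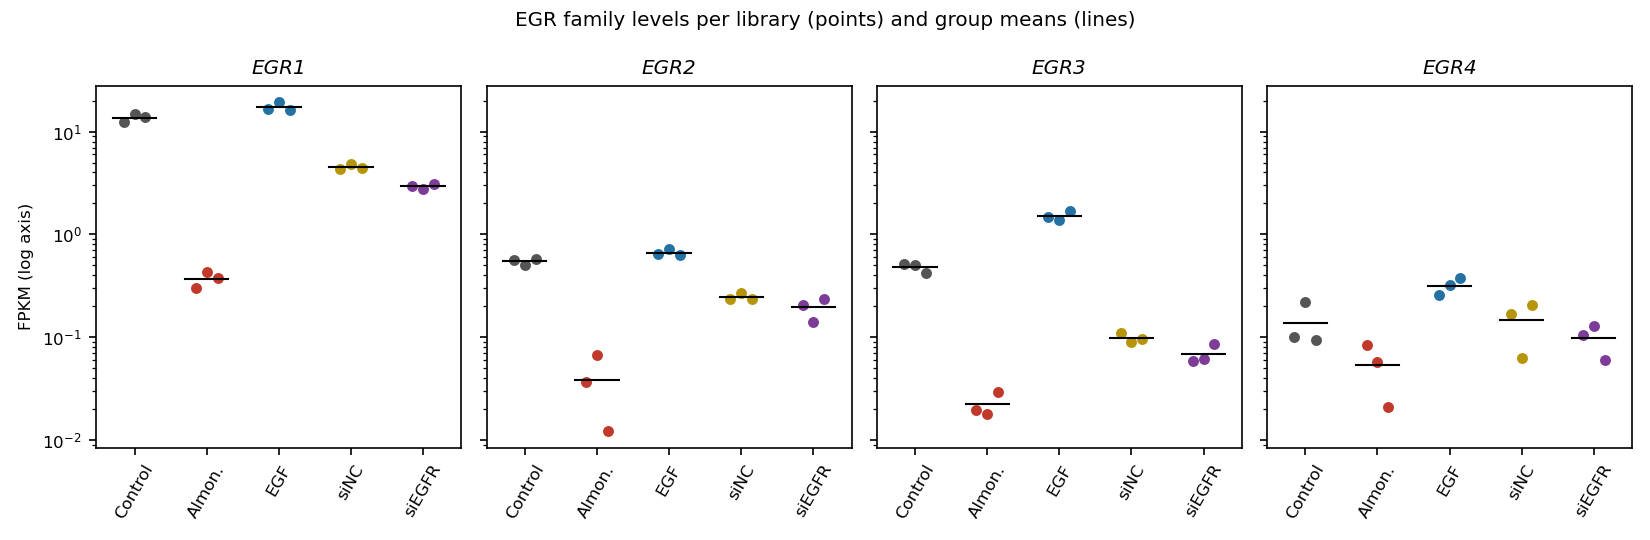
FPKM on a log axis for EGR1, EGR2, EGR3 and EGR4 in the 15 libraries, by group, with points for libraries and lines for group means. EGR1 lies above the other family members in every group, and the almonertinib mean is the lowest of the 5 groups in each panel, at 0.37 FPKM for EGR1 and 0.0224 for EGR3.

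IER2 (ENSG00000160888, chromosome 19), which encodes a nuclear protein linked to transcription, rose in both treatments. The control libraries were at 22, 22.8 and 23.1 FPKM, the almonertinib libraries at 25.1, 26.1 and 27.7 and the EGF libraries at 27.3, 31.5 and 29. IER2 was above control in every library of both treatments, and the almonertinib and EGF libraries overlapped. The increase was 0.21 ± 0.06 with almonertinib (adjusted p = 0.0157) and 0.36 ± 0.06 with EGF (0.000164). The first was not called after TPM scaling (0.13, adjusted p = 0.08), in a fit of the 6 libraries alone (0.144) or without control 1 (0.19, 0.0507). IER2 was at 18.3, 17.4 and 18.6 FPKM in siNC and 18.4, 18 and 17.8 in siEGFR, levels that overlapped (-0.01, 95% interval -0.13 to 0.11).

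IER3 (ENSG00000137331, chromosome 6) was the least even gene within groups. It was at 23.9, 11.8 and 16 FPKM in control, 11.2, 12 and 18.6 with almonertinib and 38.1, 26.5 and 37.1 with EGF. Every EGF library was above every other library, while control and almonertinib overlapped and control 1 and almonertinib 3 were the highest of their groups. IER3 rose with EGF (0.97 ± 0.23, adjusted p = 0.00309), to 1.97 times the control mean, and with almonertinib was not called (-0.26 ± 0.23, 0.396, and -0.01 with adjusted p = 0.983 without control 1). The siNC libraries were at 13.4, 15.1 and 14.1 FPKM and the siEGFR libraries at 10.7, 11.4 and 13.2, each siEGFR library below each siNC library, and the change of -0.26 (-0.75 to 0.24) was not called. This interval rests on a spread shared by all 15 libraries. The log2 SD of IER3 was 0.484, 0.370 and 0.283 in control, almonertinib and EGF, and 0.084 and 0.140 in siNC and siEGFR. None of 25 alternative settings called the change (lowest adjusted p = 0.0589 in limma). The antisense gene IER3-AS1 shares 359 bases of exon with IER3 and was at 0 to 0.513 FPKM.

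IER5 (ENSG00000162783, chromosome 1), a gene known for its link to the heat shock factor HSF1, was highest in siNC. It stood at 15, 15.9 and 16.9 FPKM in control, 16.3, 16.9 and 18.6 with almonertinib and 20.7, 21.2 and 19.9 with EGF. Of these treatments only EGF lay clear of control in every library (0.35 ± 0.06, adjusted p = 0.000328). The siNC libraries were at 22.7, 21.7 and 22 FPKM and the siEGFR libraries, all lower, at 20.4, 18.4 and 19. That change was -0.19 (-0.32 to -0.06) and missed the threshold (adjusted p = 0.0984), and it passed in a fit of the 6 siRNA libraries alone (0.0211), without almonertinib 3 (0.0489) and without control 1, almonertinib 3 and EGF 2 (0.0162).

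KLF10 (ENSG00000155090, chromosome 8), also known as a TGF-beta inducible early gene, moved in the drug, the ligand and the siRNA control. It was at 6.38, 6.4 and 5.77 FPKM in control, 3.51, 3.13 and 3.22 with almonertinib and 10.7, 9.88 and 9.67 with EGF. The siNC libraries were at 15.4, 15 and 15.4 FPKM and the siEGFR libraries at 14.2, 14.6 and 14.2. No 2 groups overlapped, and the order was siNC, siEGFR, EGF, control and almonertinib. KLF10 fell to 53.2% of control with almonertinib (-0.74 ± 0.05, adjusted p = 1.78e-06) and rose to 1.63 times control with EGF (0.63 ± 0.05, 8.93e-07). On knockdown its change was -0.09 with an interval of -0.20 to 0.03 and was not called, although the 3 siEGFR libraries lay below the 3 siNC libraries. Such a lack of overlap between these groups held for 40.5% of the tested loci.

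KLF6 (ENSG00000067082, chromosome 10), described as a tumour suppressor, was at 18.2, 13.3 and 14.6 FPKM in control, 11.2, 9.85 and 12 with almonertinib and 28.7, 22.5 and 26.9 with EGF. These 3 groups did not overlap. KLF6 fell with almonertinib (-0.44 ± 0.11, adjusted p = 0.00986) and rose with EGF (0.73 ± 0.11, 0.000108). The fall was not called in a fit of the 6 libraries alone (adjusted p = 0.0989). In siNC KLF6 was at 21.6, 20.4 and 22.2 FPKM and in siEGFR at 23, 22.7 and 22.8, slightly higher in each library, with a change of 0.09 (-0.15 to 0.32) that was not called. As for IER3, this interval rests on a spread shared by all libraries. The log2 SD of KLF6 was 0.221, 0.132 and 0.176 in control, almonertinib and EGF, and 0.060 and 0.011 in siNC and siEGFR. None of 25 alternative settings called it (lowest adjusted p = 0.127 in limma).

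KLF4 (ENSG00000136826, chromosome 9), best known as a pluripotency factor and a differentiation factor of epithelia, fell on knockdown and was not called with the drug. Its levels were 4.22, 4 and 4.39 FPKM in siNC and 2.63, 2.75 and 2.78 in siEGFR, which is 64.7% of the siNC mean with no overlap (-0.48 ± 0.06, adjusted p = 0.000238). With EGF it was at 4.35, 4.21 and 4.21 FPKM, above control at 2.5, 2.8 and 2.38 (0.56 ± 0.06, 3.54e-06). The almonertinib libraries, at 2.25, 2.3 and 2.48 FPKM, overlapped with control (-0.09, 95% interval -0.21 to 0.03, adjusted p = 0.251). KLF4 was thus higher in EGF and siNC than in control, almonertinib and siEGFR, and groups with neighbouring means overlapped within each of these sets. The almonertinib and siEGFR libraries did not overlap, and their difference was not tested.

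KLF2 (ENSG00000127528, chromosome 19), known for its role in endothelial cells and T cells, was low and even. It was at 1.19, 1.47 and 1.54 FPKM in control and at 1.55 to 1.93 in the other 12 libraries, so control was the lowest group. The changes with almonertinib (0.18, adjusted p = 0.0765) and EGF (0.15, 0.0988) were not called. KLF5 (ENSG00000102554, chromosome 13), a factor of proliferating epithelia, was at 3.98 to 5.52 FPKM in all 15 libraries. It was not called with almonertinib (-0.19, 0.0782), EGF (-0.15, 0.123) or siEGFR (0.03, 95% interval -0.14 to 0.19). KLF5 was called lower with almonertinib after TPM scaling (adjusted p = 0.0444).

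**Figure D3:**
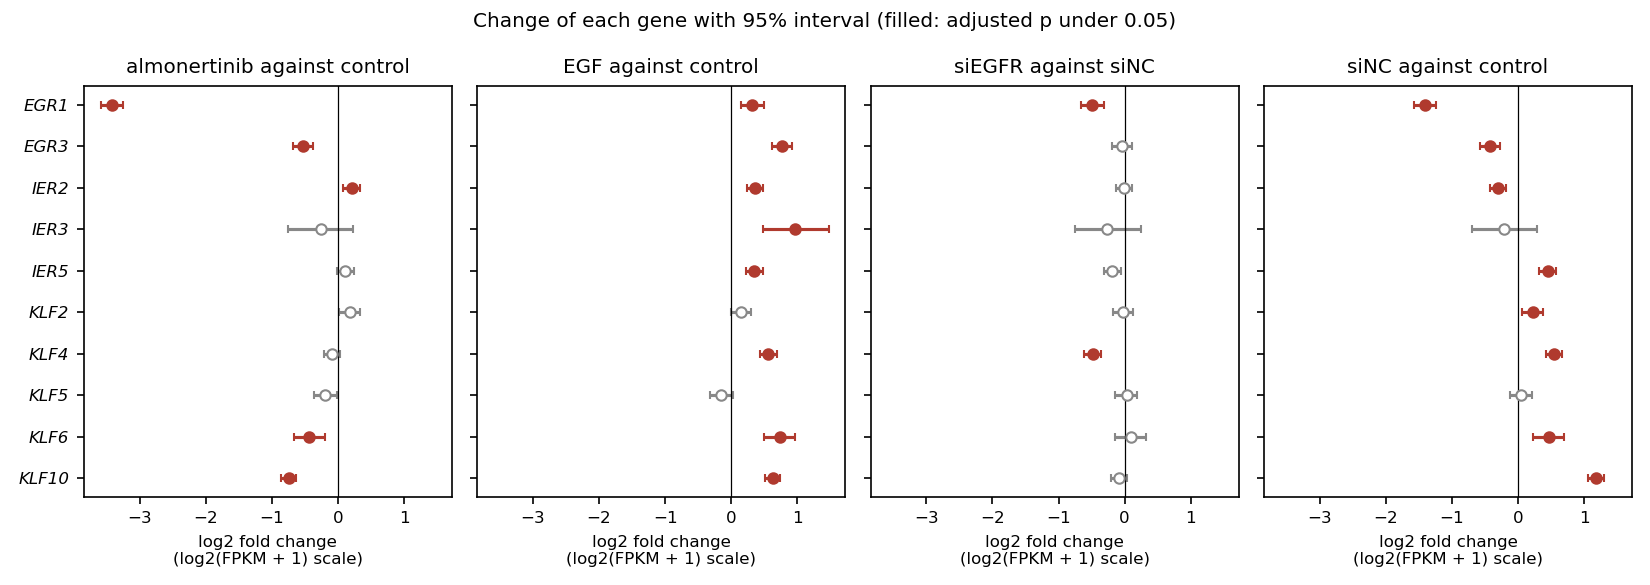
Log2 fold change of each gene on the log2(FPKM + 1) scale with its 95% interval (horizontal axis) for 4 comparisons (panels), with filled points for adjusted p under 0.05. With EGF 8 points are filled and to the right of 0, with almonertinib 4 to the left and 1 to the right. With siEGFR against siNC only EGR1 (-0.49) and KLF4 (-0.48) are filled. EGR3 passed the filter only through its EGF libraries. Without it 7 of 9 are higher with EGF, and 3 of 9 are lower and 1 higher with almonertinib. Of all tested loci 22% were higher and 27.3% lower with EGF, 12.1% and 18% with almonertinib, and 2.27% and 3.19% with siEGFR.

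Counted over the 10 genes, the ligand gave the most uniform response. Leaving aside EGR3, which passed the filter only through the EGF libraries, EGF raised 7 of 9 and lowered none at the adjusted threshold. Of all tested loci 22% were higher and 27.3% lower at that threshold. The counts were the same at an unadjusted p under 0.05 in limma, for which no share over all loci was counted. The median change of the 9 was 0.36, beside -0.04 over all tested loci. With the replicate number as a block, KLF5 was also called lower (-0.15, adjusted p = 0.0274). KLF2 and KLF5 were the genes not called.

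With almonertinib 4 of 10 fell (EGR1, EGR3, KLF6 and KLF10), 1 rose (IER2) and 5 were not called. The background was 18% lower and 12.1% higher. Without EGR3, 3 of 9 fell, with a median of -0.19 beside -0.06 over all tested loci. Of the loci called in this comparison 40.2% were higher, beside 22.8% with TPM and 54.3% with median-ratio scaling. None was called higher without control 1, and 2 were without almonertinib 3 (IER2 and KLF2). IER3, IER5, KLF2, KLF4 and KLF5 are the genes of the 10 that the drug did not move past the threshold.

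With siEGFR against siNC 2 of 10 fell (EGR1 and KLF4) and none rose, against 3.19% lower and 2.27% higher of all tested loci, with a median of -0.06 beside 0.01 (-0.09 without EGR3). By limma, 3 of the 10 were lower and none higher at an unadjusted p under 0.05, for which no share over all loci was counted. Limma-voom on the recovered reads called 2 lower and none higher.

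EGF and almonertinib libraries, which are those of the comparisons with control, differed, EGR3 aside, in 7 of 9 genes, all higher with EGF, beside 32.6% higher and 30% lower of all tested loci. The differences were 3.74 ± 0.08 for EGR1, 1.37 ± 0.05 for KLF10, 1.24 ± 0.23 for IER3, 1.17 ± 0.11 for KLF6 and 0.65 ± 0.06 for KLF4. IER5 (0.24) and IER2 (0.15, adjusted p = 0.0335) differed least of the 7, and IER2 was not called after median-ratio scaling (0.08, adjusted p = 0.37), without the filter (0.0713), in a fit of the 6 libraries alone (0.149) or without any 1 of 4 libraries, almonertinib 1 or 2 or EGF 2 or 3 (0.0668 to 0.148).

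Most of these genes, like 66% of all tested loci, differed between the siNC and control groups. In siNC against control 5 of 10 were higher and 3 lower, beside 34.4% and 31.6% of all tested loci. These shares show how far the 2 controls differ. Without EGR3, 5 of 9 were higher and 2 lower. EGR1 was at 32.9% of control (-1.41 ± 0.08, adjusted p = 4.46e-09), EGR3 at 20.6% (-0.43 ± 0.07, 0.000113) and IER2 at 80.1% (-0.31 ± 0.06, 0.000328). KLF10 was at 247% of control (1.18 ± 0.05, 8.28e-10), KLF4 at 164% (0.55 ± 0.06, 2.02e-06), and KLF6 (0.47 ± 0.11, 0.00207), IER5 (0.45 ± 0.06, 2.18e-05) and KLF2 (0.22 ± 0.07, 0.0157) were higher too. In siNC cells the EGR genes thus lay below control, and of the KLF genes 4 lay above it and KLF5 was not called (0.04, 0.636). The change of KLF2 was 0.35 after TPM scaling, and its call was lost after median-ratio scaling (adjusted p = 0.0726), in a fit of the 6 libraries alone (0.062), without control 1 (0.0635) and without siNC 2 (0.0673). Markers moved in the same comparison: EPCAM was at 535%, KRT7 at 537%, CDH1 at 287% and KRT18 at 126% of control, KRT19 at 56.8%, and KRT8, at 98.8%, was not called. The endothelial sum was 2.87 to 3.5 FPKM in control and 0.484 to 0.519 in siNC, and the fibroblast sum 337 to 352 and 138 to 146. Most of the fibroblast sum was COL1A2, at 323 to 336 FPKM in control and 129 to 135 in siNC. COL1A2 (-1.32 ± 0.05, adjusted p = 1.6e-10) and PDGFRB (-2.04 ± 0.10, 9.68e-10) were lower, and COL1A1 was higher (0.31 ± 0.08, 0.00405). The part of these markers in these changes was not tested. What else distinguishes the siRNA cultures, such as transfection or day, is not in the labels and cannot be told apart from the siRNA.

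The difference between the drug effect and the knockdown effect was tested directly, with 4 separate groups. Of the 10 genes 4 were called lower and 2 higher, beside 7.71% and 5.95% of all tested loci. Without EGR3, which passed the filter only through the EGF libraries, 3 of 9 were lower and 2 higher. EGR1 (-2.93 ± 0.11, adjusted p = 2.1e-08), KLF10 (-0.66 ± 0.08, 0.0002), EGR3 (-0.49 ± 0.10, 0.0056) and KLF6 (-0.53 ± 0.15, 0.0386) were called lower. KLF4 (0.40 ± 0.08, 0.00656) and IER5 (0.30 ± 0.09, 0.0345) went the other way. With the added 1, a fall is bounded by the starting level. EGR3 was at 0.48 FPKM in control and 0.0988 in siNC, so its possible fall was smaller on knockdown whatever siEGFR did. EGR1 started lower in siNC too, at 4.5 FPKM beside 13.7 in control. With limma-voom on the recovered reads the differences were -4.56 ± 0.22 for EGR1 (adjusted p = 5.18e-08) and -3.67 ± 0.45 for EGR3 (0.000167). The call for KLF6 was lost without any 1 of 11 libraries, namely control 1 or 3, almonertinib 1 or 2, EGF 3 and each siRNA library (adjusted p up to 0.0947), or without the filter (0.103), and that for IER5 without any 1 of 7, namely control 1, almonertinib 2, siNC 1, 2 or 3 and siEGFR 2 or 3 (up to 0.0901), without the filter (0.0849) or with TPM (0.109). The siEGFR cells kept 58.8% of the siNC level of EGFR messenger RNA. With almonertinib EGFR was at 68.5% of control (-0.52 ± 0.11, adjusted p = 0.00521). The effects start from baselines, control and siNC, that differ in 8 of the 10 genes, beside 66% of all tested loci. Without EGR3, 5 of 9 were higher and 2 lower in siNC. Of the loci called in this comparison 43.5% were higher, beside 25.5% with TPM and 58.0% with median-ratio scaling.

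The uneven libraries were shared by some of the genes. The SD within groups, pooled over the 5 groups on the log2 scale, was 0.309 for IER3 (percentile 94.1 of the tested loci) and 0.142 for KLF6 (61.2), and from 0.051 to 0.094 for the other 8, where the median over all tested loci was 0.120. The noncoding RNA MALAT1, which stays in the nucleus, had 99.4, 48.5 and 70 FPKM in the control libraries, 66.6, 55.1 and 86 in those with almonertinib and 61.3, 45.5 and 56 in those with EGF. Over these 9 libraries, the deviations from group means correlated with those of MALAT1 at Pearson r = 0.94 for IER3 and 0.94 for KLF6, and at -0.83 for KLF2 and -0.78 for EGR1. Of all tested loci 11% had an r of at least 0.94 and 15.3% one of at most -0.78, and deviations from a group mean share the library. In the siRNA groups MALAT1 was at 31.2 to 39.8 FPKM. The part of this variation in the results for IER3 and KLF6 was not tested. Without control 1, almonertinib 3 and EGF 2 the calls of both genes in the comparisons with control were as in the full fit.

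**Figure D4:**
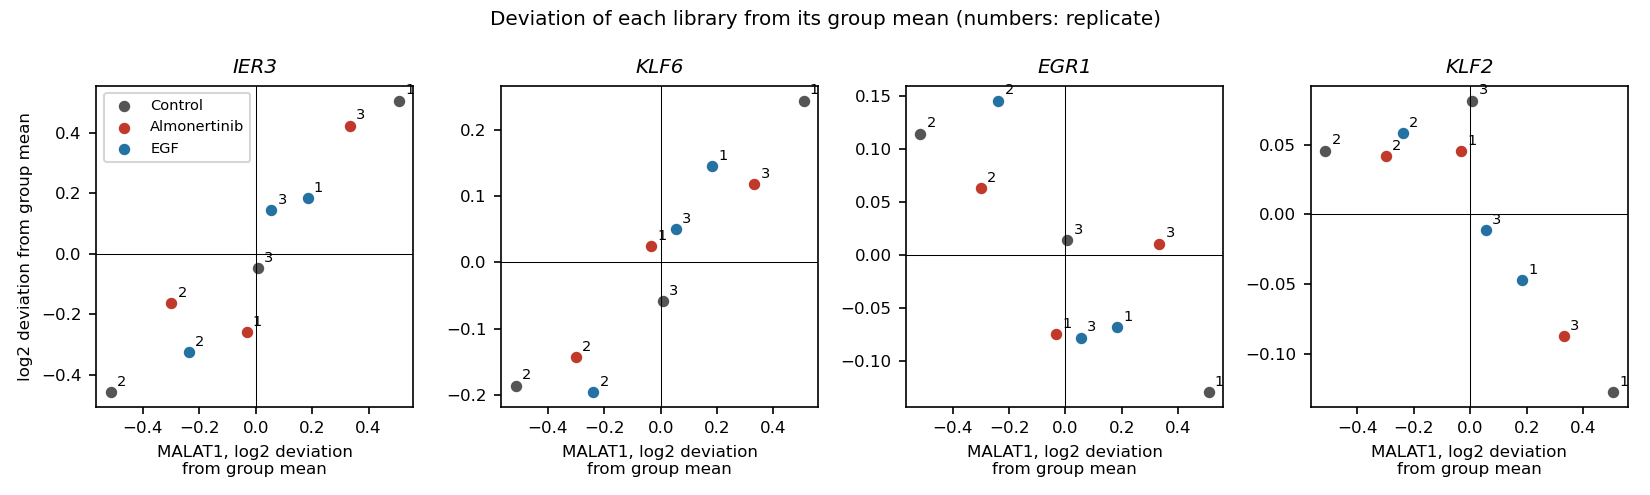
Deviation of each library from its group mean in log2(FPKM + 1) for IER3, KLF6, EGR1 and KLF2 (vertical axes of different range) against that of MALAT1 (horizontal axis), over the 9 control, almonertinib and EGF libraries, numbered by replicate. Control 1 lies at the right of each panel, high in IER3 and KLF6 (r = 0.94 for each) and low in EGR1 and KLF2 (r = -0.78 and -0.83).

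Of 15 further EGR, IER and KLF genes 10 were tested, and few of these were called with the drug. EGR2 and EGR4 (given above), KLF8, KLF14 and KLF15 did not reach the filter. KLF15 was at 6, 8 and 3 reads in control and 19, 19 and 16 with almonertinib. KLF8 was at 133, 75 and 87 reads in control and 93, 87 and 94 with almonertinib, and KLF14 had 0 in these libraries. With almonertinib only IER5L, a relative of IER5, was called (0.39 ± 0.10, adjusted p = 0.0147), beside 12.1% higher and 18% lower of all tested loci. With EGF KLF17 and KLF16 rose, and KLF13 (-0.52 ± 0.06, 8.61e-06) and KLF9 fell. KLF1, an erythroid factor, was called too, but it passed the filter only through EGF and siNC libraries, where it is high, so it is given by its reads. KLF1 was at 2 reads in each control library and at 35, 41 and 58 in the EGF libraries, a ratio of 16.3 (interval 7.3 to 45.2). On knockdown KLF13 at -0.67 ± 0.06 (1.54e-05) and KLF11 at -0.26 ± 0.07 (0.0353) fell, and KLF17 rose (0.26 ± 0.07, 0.0428). KLF13 was thus lower both with EGF and with siEGFR. KLF1 was at 1.12, 1.09 and 0.799 FPKM in siNC and at 0.312, 0.136 and 0.119 in siEGFR, a ratio by reads of 4.99 (116 against 21 reads, interval 3.11 to 8.36). In siNC against control KLF7, KLF11 and KLF16 rose, and KLF3, KLF9 (-1.25 ± 0.10), KLF13 and KLF17 fell.

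Among 9 regulators of this program, all tested, almonertinib lowered 5 and raised none, beside 18% lower and 12.1% higher of all tested loci. NAB2, an EGR corepressor and EGR1 target, fell from 26.8 ± 2.88 to 16.6 ± 1.01 FPKM (-0.65 ± 0.09, adjusted p = 0.000175). Its exons share 69 bases with STAT6 on the opposite strand, at 20.2 to 50.6 FPKM. ELK1 (-0.20 ± 0.05, 0.00746) and the SRF coactivator MRTFB (-0.55 ± 0.10, 0.00155) fell as well, and so did ELK3 and ELK4. With EGF 2 rose and 2 fell, beside 22% and 27.3% of all tested loci. SRF (0.35 ± 0.11, 0.0173) and ELK3 (0.57 ± 0.11, 0.00107) rose, and MRTFA (-0.52 ± 0.07, 5.29e-05) and MRTFB (-0.39 ± 0.10, 0.00537) fell. NAB2 was not called with EGF (-0.09, 0.418). On knockdown none of the 9 was called by limma, beside 5.46% of all tested loci (ELK3 had the smallest p, with -0.41 ± 0.11 and adjusted p = 0.0576). NAB1 was not called in any of the 6 comparisons. In siNC NAB2 was below control (-0.72 ± 0.09, 7.28e-06), as EGR1 was.

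Of 18 other immediate early genes 16 were tested. With almonertinib 9 fell and 1 rose (GADD45B), beside 18% and 12.1% of all tested loci. With EGF 11 rose and none fell, beside 22% and 27.3%. On knockdown FOSL1 and CCN1 rose and FOS and JUNB fell, beside 2.27% higher and 3.19% lower of all tested loci. FOS, a subunit of the AP-1 factor, fell with almonertinib (-1.36 ± 0.08, adjusted p = 1.88e-07) and on knockdown (-0.35 ± 0.08, 0.0173). FOSL1, another AP-1 subunit, was at 6.54 ± 0.961 FPKM in control, 1.33 ± 0.322 with almonertinib and 30.1 ± 2.13 with EGF, and at 59.6 ± 2.2 in siNC and 79.7 ± 2.4 in siEGFR. Like KLF10, it was above control in both siRNA groups. In siNC against control 10 of the 16 rose and 5 fell, beside 34.4% and 31.6% of all tested loci.

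Delayed targets of ERK, such as the phosphatase DUSP6 and the cyclin CCND1, respond after the immediate early genes. All 11 were tested, and this list too was chosen with earlier results of these data known. With almonertinib all 11 fell (median -0.99), beside 18% of all tested loci (median -0.06). With EGF all 11 rose (median 0.75), beside 22% (median -0.04). On knockdown 7 fell and none was higher (median -0.37), beside 3.19% lower and 2.27% higher of all tested loci (median 0.01). DUSP6 changed by -1.23 ± 0.05 with almonertinib, 2.19 ± 0.05 with EGF and -0.98 ± 0.05 with siEGFR. The 10 early response genes, by count, had, EGR3 aside, 3 of 9 lower with the drug and 2 of 9 lower on knockdown, with medians of -0.19 and -0.09, and no test compares these lists. In siNC against control 8 delayed targets rose and 1 fell, beside 34.4% and 31.6% of all tested loci, with DUSP6 at 1.67 ± 0.05.

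The genes whose levels followed each member most closely over the 15 libraries were named by Pearson r of log2(FPKM + 1), among 3122 tested loci with a symbol whose group means span at least 1 log2 unit. Symbols that read like clones, noncoding RNAs or pseudogenes were left out by their letters. This also left out coding genes whose symbols end in P and digits, such as DUSP4, DUSP5 and DUSP6, so closer genes may be missing. These are descriptions, since libraries of a group are alike. For EGR1 they were FOS (0.989), CX3CL1 (0.961) and PLK3 (0.948), and FOS had the same order of groups: 3.25 FPKM with EGF, 2.67 in control, 1.65 in siNC, 1.09 in siEGFR and 0.427 with almonertinib. For EGR3 they were ADGRE2 (0.988), CYTH4 (0.984) and DHCR7 (0.981), for IER2 ADM (0.963), CALB2 (0.961) and TRAF1 (0.957), and for IER3 STARD4 (0.967), RGS4 (0.934) and MSMO1 (0.932). KLF4 was closest to SERPINB2 (0.966), CA1 (0.958) and PLEK2 (0.948), KLF6 to GSPT1 (0.989), STK17A (0.985) and TGFBR1 (0.985), and KLF10 to GALNT10 (0.997), NSUN2 (0.996) and VCL (0.995). IER5 (at most 0.936), KLF5 (at most 0.885) and KLF2 (at most 0.789) had weaker matches. Between the 10 themselves, the pairs with the highest r were EGR3 and IER3 (0.88), KLF6 and KLF10 (0.87), and EGR1 and EGR3 (0.82), and the lowest was IER2 and KLF5 (-0.78).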

How the data were processed

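Messenger RNA of NCI-H1975 was sequenced as paired-end libraries after oligo(dT) enrichment, per the labels' protocols. The authors deposited FPKM values of 61248 loci in 15 libraries. HISAT2, featureCounts, DESeq2 and the build hg19 are named in the submitters' processing notes, without versions or roles, and the strand setting is not given in the sources used here. Of the loci, 60463 matched a symbol by Ensembl ID. Whole reads were recovered from the steps of the deposited FPKM: at the 20716 loci above 0 in every library 100.000% of values were whole within 0.01 reads, and totals ranged from 18009903 to 34908302. These reads serve for counting intervals and for limma-voom.

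The values log2(FPKM + 1) of the 14999 loci with at least 1 FPKM in at least 3 libraries entered limma 3.58.1 (R 4.3.3) with a variance trend, robust moderation, 1 coefficient per group, 10 residual degrees of freedom and 6 two-sided contrasts, adjusted by Benjamini-Hochberg within each. The fit and the read recovery were tested on simulated data. Intervals of read ratios are exact, at 95%, and cover counting error only. Exon overlaps came from GENCODE and promoters from RefSeq. Python 3.11.15 with pandas 2.3.3, numpy 2.4.6, scipy 1.17.1 and matplotlib 3.10.9 made the tables and figures.

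The 10 genes and the lists were chosen with earlier results of these data known. Named were the 10 genes, EGFR, of each list the 3 genes with the smallest p per comparison, NAB1, NAB2 and SRF, and the 3 genes most like each member among the symbols kept for that search. EGR2, EGR4, KLF8, KLF14, KLF15, MALAT1, the epithelial markers, COL1A1, COL1A2, PDGFRB and genes that complete a count (KLF3, KLF7, KLF9, KLF11, KLF16, KLF17, ELK3, ELK4 and GADD45B) were named after their values were seen. Not every gene named by this rule is printed. Alternatives were a pseudocount of 0.1, no filter, TPM or median-ratio scaling, fits of only the groups compared, no moderation trend, the replicate block and leaving out each library in turn. Chosen after seeing the data were limma-voom, a filter of 1 FPKM in 1 library and a fit without control 1, almonertinib 3 and EGF 2, the library of each of these groups farthest from its group means over all tested loci.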

Additional observations from a re-analysis of the deposited data

Results flagged for a closer look

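For 6 of the 10 genes the effect of almonertinib (against control) differed from that of siEGFR (against siNC) in a test of the difference itself, by limma on log2(FPKM + 1) with adjustment over all 14999 tested loci. Of all tested loci 5.95% were higher and 7.71% lower in this comparison. EGR1 fell by 3.42 with the drug and by 0.49 on knockdown, a difference of -2.93 ± 0.11 (adjusted p = 2.1e-08). The almonertinib libraries of EGR1 were at 0.301 to 0.431 FPKM and the siEGFR libraries at 2.75 to 3.08. The difference was -0.66 ± 0.08 for KLF10 (adjusted p = 0.0002), -0.49 ± 0.10 for EGR3 (0.0056) and -0.53 ± 0.15 for KLF6 (0.0386), genes that fell with the drug and were not called on knockdown. For KLF4 it was 0.40 ± 0.08 (0.00656), with a call on knockdown and none with the drug, and for IER5 0.30 ± 0.09 (0.0345), with no call in either. Leaving out 1 library at a time, the call was lost in 11 of 15 fits for KLF6 and in 7 of 15 for IER5. EGR3 passed the filter only through the EGF libraries, and without the filter its difference was -0.49 ± 0.07 (0.0033). Its siNC level of 0.0988 FPKM, beside 0.48 in control, left little room for a fall on knockdown on the log2(FPKM + 1) scale. This difference of EGR3 therefore cannot tell a weaker knockdown effect from a lower starting level. EGR1 also started lower in siNC, at 4.5 FPKM beside 13.7 in control. EGFR messenger RNA was at 58.8% of siNC in the siEGFR cells and at 68.5% of control with almonertinib, and the part of these levels in these differences was not tested.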

How the results depend on the processing

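Over 25 alternative settings, 1476 values of single genes were recomputed: 1413 kept their direction and side of the threshold, 37 lost a call, 8 gained one and 18 reversed, none of these called. EGR3 passed the filter in 21 of the 25.

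Of the counts of genes, those higher with almonertinib (1) became 0 after TPM scaling and in a fit of only the groups compared, 2 after median-ratio scaling, and 0 to 2 when 1 library at a time was left out. The replicate block gave 1 gene lower with EGF instead of 0. For the drug effect minus the knockdown effect the genes higher (2) became 1 without the filter, after TPM scaling and in the fit of only the groups compared, and 1 to 2 when 1 library was left out, and the genes lower (4) became 2 to 4 in these, with 2 without EGF 3, where EGR3 dropped out of the test. The cause of the other shifts was not tested.

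The reversed values were small. With 1 library left out, the knockdown changes ran from -0.03 to 0.01 for IER2 (0.0006 and 0.0033 among them), from -0.05 to 0.02 for KLF2 and from -0.03 to 0.09 for KLF5. IER3 in siNC against control ran from -0.44 to 0.05, with 0.05 without control 1, and was 0.05 without control 1, almonertinib 3 and EGF 2. In EGF against almonertinib KLF2 reached 0.03 after TPM scaling and KLF5 -0.02 after median-ratio scaling and -0.02 to 0.07 with 1 library left out. The drug effect minus the knockdown effect of IER3 reached 0.10 after median-ratio scaling, -0.23 to 0.25 with 1 library left out and 0.04 without the 3 libraries named above.

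The share of all tested loci called with almonertinib (30.1%) was 5.71% in the fit of only the groups compared and 18.7% without almonertinib 2. On knockdown (5.46%) it was 20.5% in the fit of only the groups compared, 15.1% without the 3 libraries, and 2.84% without siNC 1. For the drug effect minus the knockdown effect (13.7%) it was 27.3% without the 3 libraries and 8.86% without siEGFR 3.

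The correlation of deviations between same-numbered libraries ran from -0.169 to 0.597, over 0.1 in 10 of 30 pairs. The highest values lay among control, almonertinib and EGF: 0.528 to 0.597 for replicate 2, 0.55 for control 1 with EGF 1, and 0.438 for almonertinib 3 with EGF 3. Their other pairs ran from -0.169 to 0.014. Whether the numbers mark pairs cannot be told from these values. With the replicate block 37.4% of all tested loci were called with almonertinib, beside 30.1% in the main fit. With the replicate block KLF5 was called lower with almonertinib (adjusted p = 0.0148) and with EGF (0.0274). The 2 planned count-model fits on recovered reads were not run, and limma-voom took their place. Depth limits EGR3 most, with 7 reads in the almonertinib libraries together.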
